A study of Mus musculus with 170 samples.

Results

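Endothelial cells sorted from the kidneys of old and young mice were compared across all genes, in 7 libraries, 3 old and 4 young, taken by their cell type and age labels from a series of 170 libraries of 23 cell types. The old mice were 22 to 24 months of age and the young mice 2 months. All were healthy animals on a C57/Bl6 background, no animal was treated, and the sources used here give neither sex nor the surface markers of the sort. Each library held poly(A) RNA of cells pooled from 5 animals and isolated by fluorescence-activated sorting, so a p-value here measures the spread between pools and not between single mice. A change with age was also set beside the change in kidney tubular cells (4 old, 3 young libraries), brain endothelial cells (4 old, 3 young) and lymph node endothelial cells (3 old, 3 young) of the same series.

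The kidney holds several kinds of endothelium. Glomerular capillaries filter plasma, peritubular capillaries take up what tubules reabsorb, and the vasa recta descend into and ascend from the medulla, where urea and water exchange across their walls keeps the osmotic gradient. Arterial endothelium carries Notch ligands and receives signals from the surrounding smooth muscle, and capillary endothelium of many organs takes up fatty acids. A bulk library of sorted cells mixes these beds. In such samples fewer cells of a type and less RNA per cell cannot be told apart.

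Total counts were 929204, 1585465 and 1309547 in old replicates 1 to 3, against 1109216, 1282150, 2552054 and 1861083 in young replicates 1 to 4. The label was checked on its markers. Pecam1, the adhesion protein CD31, averaged 738 ± 92.4 counts per 1000000 counts (CPM, scaled between libraries) in old and 729 ± 86.0 CPM in young cells (SD, n = 3 and 4), and Emcn, for endomucin, 1364 ± 104 CPM in old and 1495 ± 110 CPM in young cells. The old and young libraries overlapped for both genes. All 25 listed pan-endothelial genes were measured, with a summed level of 15990 to 16700 CPM in old and 14590 to 15800 CPM in young libraries, while the kidney tubular libraries had 68.1 to 143 CPM. RNA of tubules was also present. The proximal tubule markers summed to 446 to 499 CPM in old and 322 to 703 CPM in young endothelial libraries. In tubular libraries they summed to 562 to 934 CPM in old and 1325 to 2986 CPM in young ones. Distal tubule and collecting duct markers summed to 649.5 to 671 CPM in old and 435 to 950 CPM in young endothelial libraries. Loop of Henle markers summed to 344 to 457 CPM in old and 268 to 544.5 CPM in young ones. These lists had 7463 to 13000 and 1089 to 2623 CPM in tubular libraries.

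Of 11163 genes tested with edgeR's quasi-likelihood test, 113 were higher in old cells, 1.01% of those tested, and 63 were lower, 0.564%, at a Benjamini-Hochberg adjusted p under 0.05. Together the 176 called genes made up 1.58%, and 164 of them were protein coding. At an unadjusted p under 0.05 there were 1540 genes. The median log2 fold change of all genes tested was -0.01. A change of at least 1 on the log2 scale was reached by 61 of the higher and 44 of the lower genes. In 173 of the 176 the old and young libraries did not overlap, which was the case for 12.3% of all genes tested, 6.54% with the old libraries above and 5.8% with them below. The 14 highest and 14 lowest genes named below were picked for having no overlap, so that trait is no separate result for them. The counts changed when 1 library was left out, and the effect of having fewer libraries was not separated from that of the library. Without old replicate 1, 2 or 3 the genes called were 57, 38 and 49 higher and 24, 17 and 18 lower, and without young replicate 1 there were 239 higher and 139 lower. Leaving out young replicate 2 gave 70 higher, and leaving out young replicate 4 gave 55 higher and 33 lower.

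**Figure D1:**
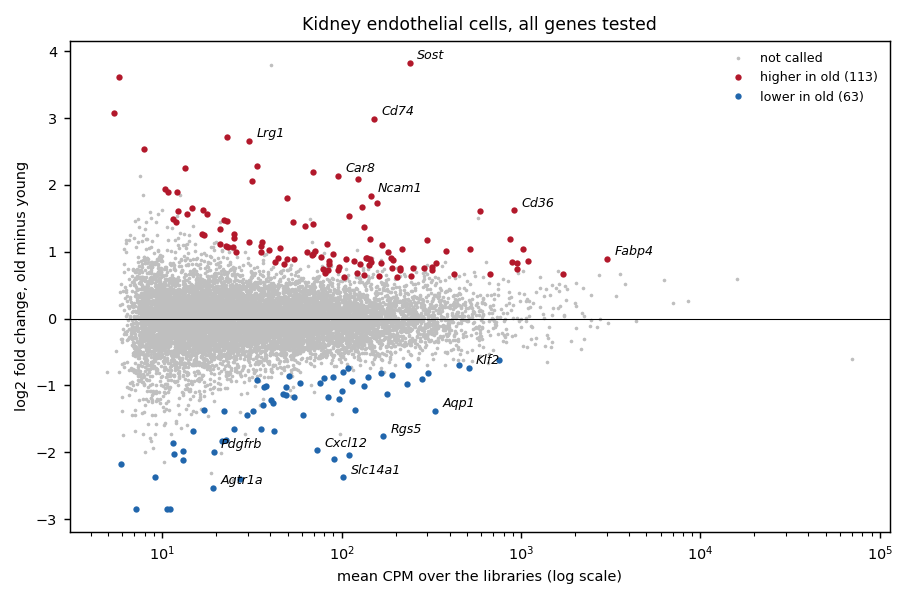
Log2 fold change, old minus young, against the mean CPM over the 7 kidney endothelial libraries on a log axis, 1 point per gene tested. The 113 genes called higher and 63 called lower in old cells are coloured, and named points include Sost at 3.82 and Slc14a1 at -2.37.

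Genes of antigen presentation by the class II major histocompatibility complex (MHC) were higher in old cells. These molecules display peptides to CD4 T cells. In mice they are carried mainly by dendritic cells, macrophages and B cells, and other cells, endothelium included, can be induced to make them by interferon gamma. Of 11 listed genes 8 were tested, and 7 of the 8 were called higher against 1.01% of all genes. The list's median log2 fold change was 2.15, beside -0.01 for all genes. Its summed level was 619 to 999 CPM in old and 97.2 to 201 CPM in young libraries.

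Cd74, the invariant chain that guides class II molecules through the cell, had 345, 387 and 184 CPM in old cells, against 26.4, 33.9, 43.7 and 46.3 CPM in young cells. Every old library was above every young one, which the naming rule required, and the log2 fold change was 2.99 ± 0.24 (SE; adjusted p = 1.01e-06). The chains of the surface molecules are encoded side by side on chromosome 17 of the build GRCm38. H2-Ab1 (34257689 to 34269419) had 206, 287 and 168 CPM in old and 30.2, 37.0, 75.1 and 57.3 CPM in young cells (log2 fold change 2.09 ± 0.25; adjusted p = 0.000101). H2-Aa (34282744 to 34287823) had 126, 149 and 105 CPM in old and 13.2, 21.3, 29.8 and 41.3 CPM in young cells, a log2 fold change of 2.20 ± 0.25 (adjusted p = 6.47e-05). H2-Eb1 (34305867 to 34316674) had 73.9, 59.9 and 54.4 CPM in old and 6.61, 15.8, 15.5 and 11.6 CPM in young cells, a log2 fold change of 2.28 ± 0.25 (adjusted p = 5.52e-05). In all 3 the groups were apart, which the naming rule required.

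Genes that load peptide onto these molecules moved the same way. H2-DMb1 (34153072 to 34160230), a chain of the peptide exchange factor DM, had 48.9, 47.0 and 40.2 CPM in old and 1.89, 9.46, 10.3 and 3.86 CPM in young cells (log2 fold change 2.71 ± 0.33; adjusted p = 0.000162). Its partner H2-DMa falls outside the naming rule and was picked with its values known. It had 18.9 ± 6.82 CPM in old and 4.6 ± 1.87 CPM in young cells (adjusted p = 0.0178). It lost its call without old replicate 1 or 2, with an adjusted p of up to 0.113. Ctss, cathepsin S, the protease that trims the invariant chain, was at 36.5 ± 6.33 CPM in old and 12.7 ± 3.5 CPM in young cells (log2 fold change 1.46 ± 0.26; adjusted p = 0.00726). Ciita, the coactivator that class II genes require, was the tested gene that was not called. It had 21.6, 12.9 and 9.46 CPM in old and 3.77, 7.88, 4.37 and 4.96 CPM in young cells, apart in all libraries but with an adjusted p of 0.0892.

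Class II promoters share the X and Y boxes, bound by factors with which Ciita acts. RefSeq promoter windows on GRCm38.p6, from 250 bases before to 50 bases after a gene's start, matched 5 of the 8 tested genes. The windows of the 3 that held the Y box letters are shown 5′ to 3′ in the direction of the gene. Capitals mark the Y box letters TGATTGG, searched on both strands, and AACTGATGATGCT, the longest run that H2-Eb1 and H2-DMb1 share in the 60 bases before their Y box, which is the place of the X box.
H2-Eb1, chr17:34305617-34305916, plus strand: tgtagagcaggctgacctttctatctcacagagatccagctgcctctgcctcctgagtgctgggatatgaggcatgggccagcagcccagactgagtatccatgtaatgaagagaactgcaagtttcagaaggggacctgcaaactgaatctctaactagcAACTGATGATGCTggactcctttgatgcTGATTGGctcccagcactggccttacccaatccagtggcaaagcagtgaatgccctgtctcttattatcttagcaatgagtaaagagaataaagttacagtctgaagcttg
H2-DMb1, chr17:34152941-34153240, plus strand: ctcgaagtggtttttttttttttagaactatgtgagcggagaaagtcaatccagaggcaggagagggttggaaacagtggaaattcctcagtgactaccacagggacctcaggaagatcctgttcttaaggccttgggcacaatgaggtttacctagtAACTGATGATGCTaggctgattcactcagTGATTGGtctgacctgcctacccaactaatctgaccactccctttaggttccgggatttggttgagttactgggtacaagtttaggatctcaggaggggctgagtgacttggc
H2-Aa, chr17:34287774-34288073, minus strand: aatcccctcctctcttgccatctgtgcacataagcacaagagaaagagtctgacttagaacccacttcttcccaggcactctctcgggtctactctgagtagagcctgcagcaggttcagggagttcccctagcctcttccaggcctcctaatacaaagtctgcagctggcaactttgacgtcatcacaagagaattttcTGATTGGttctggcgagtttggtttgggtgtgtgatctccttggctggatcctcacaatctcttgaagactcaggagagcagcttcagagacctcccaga
In these 3 windows the Y box letters lay on the gene's strand, at 61, 63 and 50 bases before the RefSeq start in H2-Eb1, H2-DMb1 and H2-Aa. For H2-DMb1 that start differs from the GENCODE one given above, and its Y box lies inside the span GENCODE gives the gene. The shared run, which these windows themselves define, lay 89 bases before the RefSeq start in H2-Eb1 and 92 in H2-DMb1, and the H2-Aa window did not hold it. Of 32851 windows of the same length, 7.82% held the Y box letters. The shared run was in 3 windows, 0.00913%, and 2, 0.00609%, held both. These 2 are the windows of H2-Eb1 and H2-DMb1 that define the run, so the share of both is no separate evidence. The windows of Ctss and H2-DMa held neither. A match is a string of letters and says nothing of binding in these cells.

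Markers of macrophages also had higher values. All 6 tested of 12 listed had a positive log2 fold change, with a median of 0.85. Of these 1 was called higher, against 1.01% of all genes, and in 3 the groups did not overlap, against 12.3% of all genes. Their summed level was 147 to 222 CPM in old and 65.1 to 89.8 CPM in young libraries. Lyz2, for lysozyme, had 61.4, 67.6 and 122 CPM in old and 17, 26.8, 29.0 and 21.5 CPM in young cells (log2 fold change 1.80 ± 0.25; adjusted p = 0.000528). The defining markers Adgre1, which encodes F4/80, and Fcgr1 had at most 2 counts in any library. Cd14 was at 21.5 ± 3.47 CPM in old and 8.71 ± 3.35 CPM in young cells (adjusted p = 0.0611), and Csf1r at 13.4 ± 4.31 CPM in old and 11.3 ± 4.62 CPM in young cells (adjusted p = 0.925). Dendritic cell markers summed to 199 to 250 CPM in old and 181 to 224 CPM in young libraries. Of their 2 tested genes 0 were called, with a median of -0.07. B cell markers summed to 3.41 to 15.5 CPM in old and 1.58 to 7.55 CPM in young libraries, with none tested. Among the old libraries, replicate 3 was the highest for Lyz2 and the lowest for Cd74 and C1qb. Replicate 2 was the highest for Cd74 and Cd14 and the lowest for Csf1r. The part of macrophage RNA in the class II values was not tested, and an order of 3 libraries is no test of it.

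**Figure D2:**
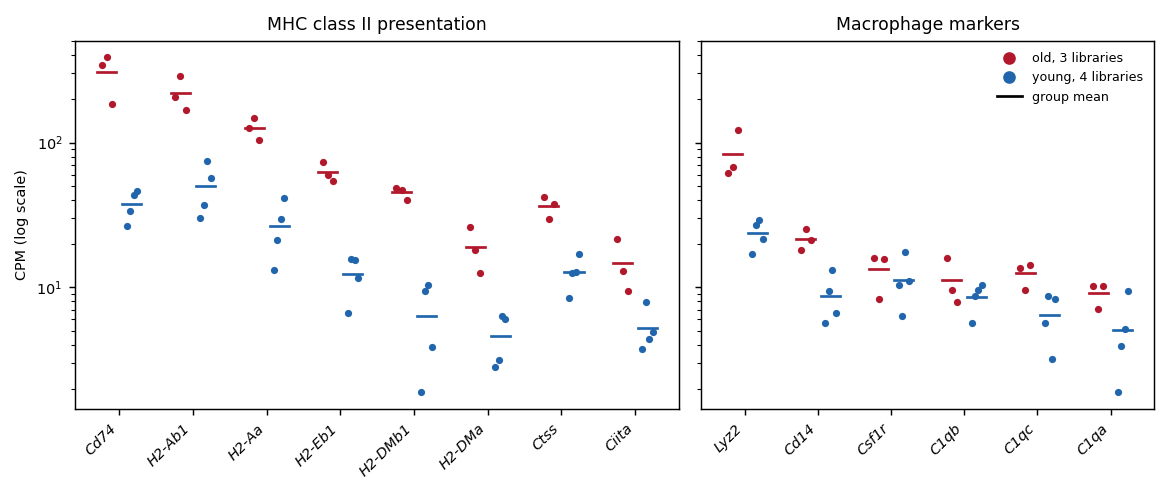
CPM of class II presentation genes and of tested macrophage markers in each library on a log axis, with bars for the group means. In all 8 class II genes the 3 old libraries lie above the 4 young ones. In 3 of the 6 macrophage markers, Lyz2 and Cd14 among them, the groups do not overlap, and for Csf1r and C1qb they do.

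Class I presentation, which every nucleated cell performs, changed in fewer members. Of 19 listed genes, all tested, 4 were called higher, against 1.01% of all genes, and none lower, with a median log2 fold change of 0.35. H2-K1, a classical class I heavy chain, had 1159, 1319 and 1082 CPM in old and 671, 682, 634 and 664 CPM in young cells (log2 fold change 0.84 ± 0.15; adjusted p = 0.00619). H2-Q7, a class Ib chain with near-identical copies whose reads may be shared, was at 90.3 ± 19.5 CPM in old and 44.9 ± 9.70 CPM in young cells (adjusted p = 0.0154). Tapbp, tapasin, which edits class I peptides, and Nlrc5, the class I coactivator, had log2 fold changes of 0.66 ± 0.16 and 1.08 ± 0.25 (adjusted p = 0.0410 and 0.0350). Exons of Tapbp overlap Zbtb22 on the same strand. The class I calls depended on old replicate 2, without which none of the 4 passed, with adjusted p from 0.0720 for H2-K1 to 0.331 for Nlrc5 over the libraries left out. Without young replicate 2 or 4, 2 of the list passed. Of 37 interferon-stimulated genes tested 2 were called higher, against 1.01% of all genes, with a list median of 0.15. These were Gbp2, a guanylate-binding protein, at 102 ± 2.32 CPM in old and 60.6 ± 7.75 CPM in young cells, and Rsad2, viperin, at 2171 ± 224 CPM in old and 1374 ± 33.5 CPM in young cells. Neither passed without old replicate 1, 2 or 3, young replicate 2 or young replicate 4, with an adjusted p of up to 0.182. Gbp8, a guanylate-binding gene outside the list and picked with its values known, had 15.9, 9.02 and 11.8 CPM in old and 0, 0.788, 0.795 and 1.65 CPM in young cells (adjusted p = 0.00253). Its exons overlap those of Gbp4 and Gbp9 on the same strand, so its reads are uncertain.

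Signals to leukocytes were called in part. Cxcl16, a membrane-bound chemokine that also takes up oxidised lipoprotein, had 96.7, 104 and 89.0 CPM in old and 38.7, 30.7, 35.8 and 42.4 CPM in young cells, a log2 fold change of 1.38 ± 0.18 (adjusted p = 0.000228). Il33, an alarmin stored in the nucleus, was at 114 ± 3.58 CPM in old and 63.3 ± 19.5 CPM in young cells (adjusted p = 0.0451), and lost its call without old replicate 1, 2 or 3, young replicate 2 or young replicate 4. They were the 2 called of 13 tested inflammatory factors, against 1.01% of all genes called higher. Of 12 adhesion genes 1 was called higher, against the same share. Vcam1, the ligand of integrin VLA-4 on leukocytes, had 206, 226 and 236 CPM in old and 105, 123, 129 and 144 CPM in young cells (log2 fold change 0.83 ± 0.16; adjusted p = 0.0117). Its adjusted p reached 0.0821 without old replicate 2 or 3. None of 8 tested complement genes passed.

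The list of capillary and vasa recta genes moved in both directions. Of its 10 genes, all tested, 2 were called higher and 3 lower, against 1.01% and 0.564% of all genes, and the median log2 fold change was 0.11. Slc14a1, the urea transporter UT-B of the descending vasa recta, had 29.6, 34.8 and 26.0 CPM in old cells, against 136, 156, 170 and 165 CPM in young cells. The groups were far apart, with a log2 fold change of -2.37 ± 0.19 (adjusted p = 1.01e-06). Aqp1, the water channel of descending vasa recta and of proximal tubule, had 149, 190 and 184 CPM in old and 336, 452, 459 and 562 CPM in young cells (log2 fold change -1.37 ± 0.19; adjusted p = 0.000416). Scin, scinderin, which severs actin filaments, had 19.3, 39.9 and 30.7 CPM in old and 85.9, 91.4, 76.7 and 82.6 CPM in young cells (log2 fold change -1.43 ± 0.21; adjusted p = 0.00131). All 3 kept their calls without each library in turn. Slc14a2, the urea transporter gene next to Slc14a1 and a gene of the collecting duct, picked with its values known, had 2.55 ± 2.06 CPM in old and 17.5 ± 10.8 CPM in young cells (adjusted p = 0.0238). It was not called without old replicate 1 or 2, and without old replicate 3 its log2 fold change moved to -3.77. Igfbp3, another gene of the list, was at 223 ± 37.3 CPM in old and 356 ± 123 CPM in young cells, with overlap and an adjusted p of 0.149. Proximal tubule markers, some of whose cells carry Aqp1, had 0 of 9 tested called, with a median of -0.06.

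Cd36 and Plvap were the members called higher. Cd36, a fatty acid translocase of capillary endothelium, had 1143, 1864 and 1459 CPM in old and 404, 438, 720 and 373 CPM in young cells, with a log2 fold change of 1.62 ± 0.22 (adjusted p = 0.000414). Plvap, which forms the diaphragms of fenestrae, had 1471, 1178 and 1142 CPM in old and 632, 574, 1039 and 586 CPM in young cells (adjusted p = 0.0420). Young replicate 3 lay close to the old libraries for Plvap. The Plvap call was lost without old replicate 1, 2 or 3, young replicate 2 or young replicate 4, with an adjusted p of up to 0.172.

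Cd36 belongs to a group that brings lipid into capillary endothelium, of which 3 of 14 tested genes were called higher, against 1.01% of all genes, and none lower (list median 0.08). Gpihbp1 (chr 15, 75596628 to 75599481), which holds lipoprotein lipase on the capillary wall, had 489, 506 and 606 CPM in old and 208, 231, 346 and 274 CPM in young cells, a log2 fold change of 1.01 ± 0.18 (adjusted p = 0.00638). Fabp4, a fatty acid carrier of the cytoplasm, had 4063, 3840 and 4429 CPM in old and 1777, 2820, 2194 and 2076 CPM in young cells (log2 fold change 0.89 ± 0.17; adjusted p = 0.0128). The summed level of the list was 7927 to 8800 CPM in old and 4685 to 5961 CPM in young libraries. Gpihbp1 was not called without old replicate 3, with an adjusted p of 0.0629, nor Fabp4 without old replicate 3 or young replicate 4, with an adjusted p of up to 0.0834. Lpl, the lipase itself, was at 368 ± 65.4 CPM in old and 460 ± 129 CPM in young cells. Abcg1, a cholesterol exporter, and Plin2, which coats lipid droplets, were chosen after their values were seen. Abcg1 had 807, 741 and 655 CPM in old and 395, 352, 317 and 362 CPM in young cells (adjusted p = 0.00101). Plin2 was at 115 ± 17.1 CPM in old and 62.7 ± 14 CPM in young cells (adjusted p = 0.0245), and was not called without old replicate 1, 2 or 3, young replicate 2 or young replicate 4.

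**Figure D3:**
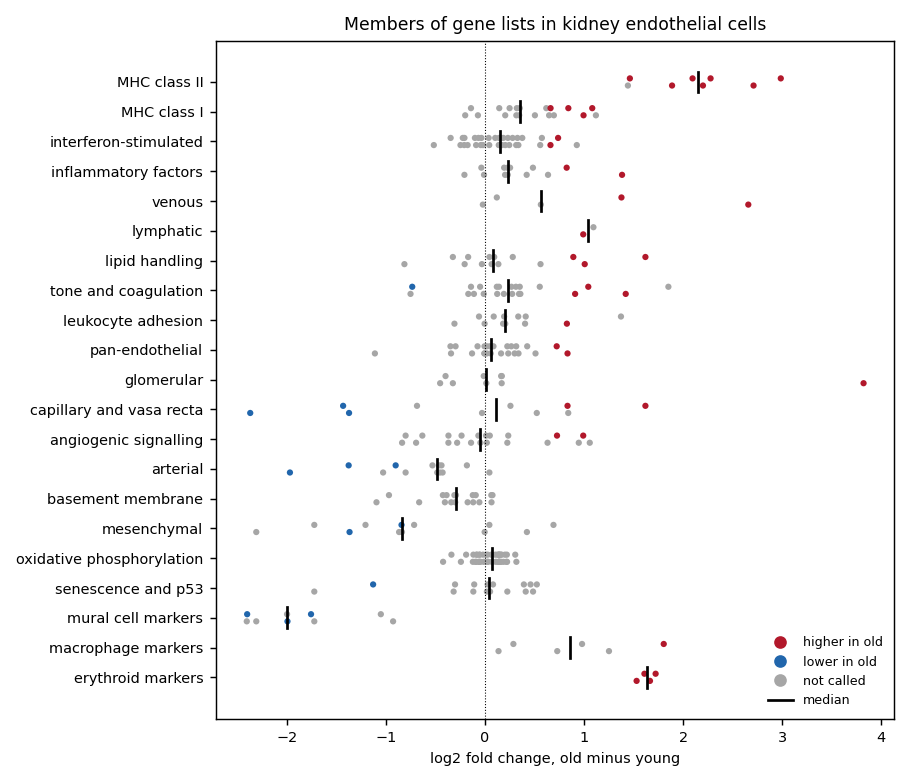
Log2 fold change, old minus young, of each tested member of 18 gene lists and 3 marker lists, coloured by the call, with a bar at the list's median. The class II list has its median at 2.15, the arterial list at -0.48 and the mural markers at -2.0.

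Arterial endothelial genes had mostly negative values. Of 13 listed, all tested, 3 were called lower and none higher, against 0.564% of all genes lower. The median log2 fold change was -0.48, and 1 of the 13 was above 0. Cxcl12, the chemokine that binds CXCR4, had 30.7, 28.3 and 24.4 CPM in old and 74.5, 86.7, 155 and 112 CPM in young cells (log2 fold change -1.97 ± 0.25; adjusted p = 0.000201). Jag1, a Notch ligand, had 172, 235 and 152 CPM in old and 286, 378, 363 and 371 CPM in young cells, a log2 fold change of -0.90 ± 0.18 (adjusted p = 0.0151). Bmx, a tyrosine kinase of arterial endothelium, had 17.1, 14.8 and 18.9 CPM in old and 23.6, 56.7, 52.8 and 39.7 CPM in young cells (log2 fold change -1.38 ± 0.29; adjusted p = 0.0189). The groups were apart in each. Jag1 was not called without old replicate 1 or 3, with an adjusted p of up to 0.128, and Bmx without old replicate 1, 2 or 3 or young replicate 2, with one of up to 0.146. Dll4, a second Notch ligand chosen after its values were seen, was at 41.6 ± 7.61 CPM in old and 72.0 ± 17.6 CPM in young cells, with no overlap and an adjusted p of 0.0721.

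Klf2, a transcription factor induced by blood flow, had 358, 380 and 374 CPM in old and 503, 610, 616 and 741 CPM in young cells (log2 fold change -0.74 ± 0.16; adjusted p = 0.0268). It was not called without old replicate 1, 2 or 3, young replicate 2 or young replicate 4. Nostrin, which binds endothelial nitric oxide synthase, and Ccn2, a matricellular protein, were chosen after their values were seen. Nostrin was at 211 ± 24.6 CPM in old and 372 ± 45.9 CPM in young cells (adjusted p = 0.0151), and Ccn2 at 61.2 ± 4.96 CPM in old and 131 ± 30.8 CPM in young cells (adjusted p = 0.00708). Ccn2 missed the threshold without old replicate 2, with an adjusted p of 0.0518, and Nostrin without old replicate 1, 2 or 3 or young replicate 4. In the list of vascular tone and coagulation, which holds Klf2, 3 of 22 tested genes were called higher, against 1.01% of all genes. These were Plau, urokinase, at 108 ± 36.6 CPM in old and 40.9 ± 11.1 CPM in young cells, Serpine2, a serine protease inhibitor, at 309 ± 17.4 and 150 ± 26.3 CPM in old and young cells, and Ptgs1, cyclooxygenase 1, at 258 ± 4.76 and 137 ± 20.5 CPM in old and young cells. Plau reached an adjusted p of 0.0529 without old replicate 2, while Serpine2 and Ptgs1 were called without each library. With the spread estimated over 4 cell types Serpine2 and Ptgs1 were not called (adjusted p = 0.074 and 0.082). Exons of Ptgs1 overlap an expressed gene model on the opposite strand.

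Of 5 venous genes tested 2 were called higher, against 1.01% of all genes, 4 of the 5 were above 0, and the list's median was 0.56. Lrg1, a secreted glycoprotein that modifies TGF-beta signalling in vessels, had 60.3, 74.1 and 43.3 CPM in old and 6.61, 7.09, 8.74 and 13.8 CPM in young cells (log2 fold change 2.66 ± 0.28; adjusted p = 3.32e-05). Bgn, the proteoglycan biglycan, had 215, 226 and 178 CPM in old and 98.1, 70.1, 79.9 and 71.0 CPM in young cells (log2 fold change 1.38 ± 0.17; adjusted p = 0.000158). Both were apart in all libraries and called without each of them. Nr2f2, the transcription factor of venous identity, chosen after its values were seen, was at 432 ± 40.6 CPM in old and 292 ± 42.6 CPM in young cells, with no overlap and an adjusted p of 0.0878. The venous genes Ackr1 and Selp had at most 1 and 9 counts in any library.

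Flt4, the VEGF receptor VEGFR3, which fenestrated capillaries carry beside lymphatic vessels, had 266, 244 and 251 CPM in old and 158, 145, 102 and 110 CPM in young cells (log2 fold change 0.99 ± 0.17; adjusted p = 0.00594). Nrp2, a coreceptor for VEGF, had 413, 378 and 456 CPM in old and 234, 230, 285 and 252 CPM in young cells (adjusted p = 0.0193). They were the 2 called of 21 tested genes of angiogenic signalling, against 1.01% of all genes called higher. The median of that list was -0.05. Nrp2 was not called without old replicate 1, 2 or 3, young replicate 2 or young replicate 4. The lymphatic markers Prox1 and Lyve1 had at most 13 and 8 counts in any library and Ccl21a had none. Pdpn, podoplanin, was at 29.3 ± 3.11 CPM in old and 14.3 ± 6.19 CPM in young cells (adjusted p = 0.0686).

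**Figure D4:**
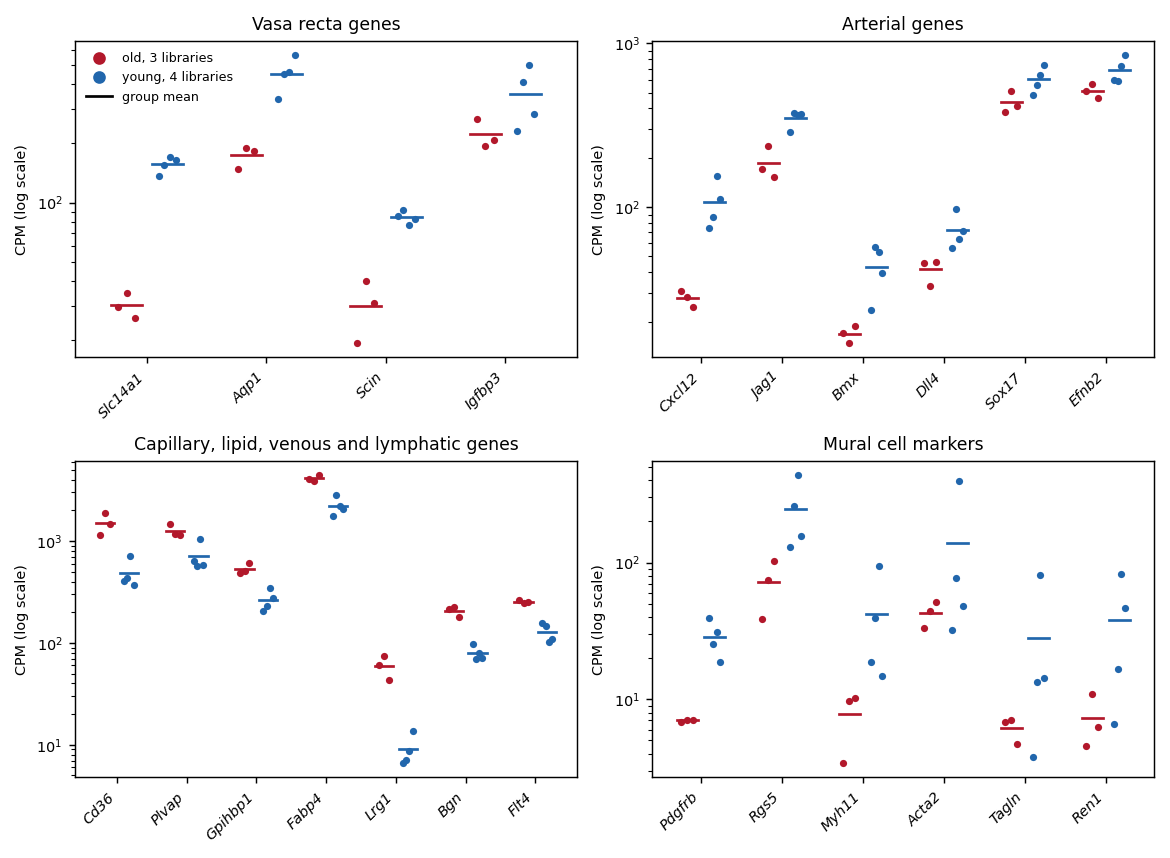
CPM in each library on a log axis for genes of the vasa recta, of arteries, of capillaries, veins and lymphatics, and for mural cell markers, with bars for the group means. Slc14a1 lies at 26.0 to 34.8 CPM in old and 136 to 170 CPM in young libraries, and young replicate 3 stands highest for Acta2 at 396 CPM.

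Sost had the highest log2 fold change among the genes named. It encodes sclerostin, an inhibitor of Wnt signalling known best from bone. Sost (chr 11, 101962458 to 101967015) had 627, 658 and 249 CPM in old cells, against 59.5, 44.9, 8.74 and 39.7 CPM in young cells. The log2 fold change was 3.82 ± 0.40 (adjusted p = 3.32e-05), and the gene was called without each library. It was listed among glomerular endothelial genes, of which it was the 1 of 9 tested that passed, against 1.01% of all genes called higher. Ehd3, a membrane trafficking protein of glomerular endothelium, had 1888, 1476 and 1961 CPM in old and 3217, 2157, 1390 and 2966 CPM in young cells (adjusted p = 0.396). Tbx3, a transcription factor, was at 1170 ± 142 CPM in old and 1047 ± 297 CPM in young cells (adjusted p = 0.799). For both the groups overlapped. In the wider Wnt pathway, Lef1, a nuclear effector, and Dkk2, a secreted antagonist, were chosen after their values were seen. Lef1 was at 19.4 ± 9.69 CPM in old and 49.1 ± 8.00 CPM in young cells (adjusted p = 0.0213), and Dkk2 at 331 ± 10.1 CPM in old and 537 ± 77.6 CPM in young cells (adjusted p = 0.0350). Lef1 was not called without old replicate 1, old replicate 2 or young replicate 4, and Dkk2 without old replicate 1, 2 or 3, young replicate 2 or young replicate 4.

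Several other genes with high fold changes belong to no list. Car8, a carbonic anhydrase relative without enzyme activity that binds the inositol trisphosphate receptor, had 142, 212 and 160 CPM in old and 32.1, 34.7, 51.7 and 34.7 CPM in young cells (log2 fold change 2.14 ± 0.20; adjusted p = 7.84e-06). Ncam1, a cell adhesion molecule, had 290, 213 and 238 CPM in old and 100.03, 58.3, 55.6 and 66.1 CPM in young cells (log2 fold change 1.83 ± 0.20; adjusted p = 4.29e-05). Exons of Ncam1 overlap an expressed gene model on the opposite strand, and the sources used here do not say whether strand entered the counting. Dcaf12l1 and Rai2, whose roles are little known, rose at low levels. Dcaf12l1 was at 24.1 ± 3.82 CPM in old and 5.26 ± 2.86 CPM in young cells (adjusted p = 0.00365), and Rai2 at 21.2 ± 2.18 CPM in old and 5.31 ± 3.02 CPM in young cells (adjusted p = 0.0161). Rai2 was not called without old replicate 1, 2 or 3. Esr1, the oestrogen receptor alpha, and Marcks, an actin-binding substrate of protein kinase C, were chosen after their values were seen. Esr1 was at 34.5 ± 4.86 CPM in old and 12.7 ± 5.92 CPM in young cells (adjusted p = 0.0209), and Marcks at 1453 ± 360 CPM in old and 707 ± 110 CPM in young cells (adjusted p = 0.00681). Esr1 was not called without old replicate 2, old replicate 3 or young replicate 4, and Marcks without old replicate 2 or 3. Sox7, an endothelial transcription factor, was at 109 ± 14.2 CPM in old and 65.6 ± 12.7 CPM in young cells, with an adjusted p of 0.0498 that passed the threshold in the absence of young replicate 4 alone among the libraries left out. It was with Plvap 1 of 2 called of 25 pan-endothelial genes tested, against 1.01% of all genes called higher.

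Markers of mural cells, the pericytes and smooth muscle cells that wrap vessels, had lower values in old libraries. Of 9 tested markers 3 were called lower, against 0.564% of all genes, and all 9 had a negative log2 fold change, with a median of -2.0. Their summed level was 124 to 202 CPM in old and 280 to 1168 CPM in young libraries. Pdgfrb, the receptor of pericytes for platelet-derived growth factor, had 6.83, 7.09 and 7.09 CPM in old and 39.6, 25.2, 31.0 and 18.7 CPM in young cells (log2 fold change -2.0 ± 0.33; adjusted p = 0.00400). Rgs5, a regulator of G protein signalling in pericytes, had 38.7, 74.1 and 102 CPM in old and 129, 258, 436 and 156 CPM in young cells (log2 fold change -1.76 ± 0.35; adjusted p = 0.0151). Myh11, the smooth muscle myosin, had 3.41, 9.66 and 10.2 CPM in old and 18.9, 39.4, 94.2 and 14.9 CPM in young cells (adjusted p = 0.0394). The groups were apart in all 3, which the naming rule required, and young replicate 3 stood highest for Rgs5 and Myh11. Acta2, smooth muscle actin, had 33.0, 44.5 and 51.2 CPM in old and 32.1, 77.2, 396 and 47.9 CPM in young cells and was not called. Without young replicate 3 the log2 fold change of Myh11 was -1.54. Myh11 was not called without old replicate 1, 2 or 3 or young replicate 2 or 3, with an adjusted p of up to 0.157, nor Rgs5 without old replicate 1 or 2, with one of up to 0.0902. The markers called were 1 without old replicate 1, 1 without old replicate 2, 2 without old replicate 3, 2 without young replicate 3 and 6 without young replicate 1.

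Genes that mural or mesangial cells also carry were among those with the lowest values. Agtr1a, a receptor for angiotensin II, had 4.55, 6.44 and 3.15 CPM in old and 70.8, 13.4, 16.3 and 20.4 CPM in young cells (log2 fold change -2.53 ± 0.58; adjusted p = 0.0350). Young replicate 1 stood apart, and without it the log2 fold change was -1.78. Without any of the old libraries the gene was not called. Itga8 (chr 2, 12106632 to 12301922), an integrin chain of mesangial and smooth muscle cells, had 29.6, 50.2 and 35.5 CPM in old and 293, 152, 119 and 90.9 CPM in young cells (log2 fold change -2.03 ± 0.33; adjusted p = 0.00291). It was called without each library. Exons of Itga8 overlap an expressed gene model on the opposite strand. Myl9, a myosin light chain of smooth muscle, had 18.2, 47.7 and 27.6 CPM in old and 73.6, 83.5, 327 and 57.8 CPM in young cells (adjusted p = 0.0410). Without young replicate 3 its log2 fold change of -2.10 moved to -1.13. It was not called without old replicate 1, 2 or 3. Gucy1a1, a chain of the nitric oxide receptor, was at 11.5 ± 3.87 CPM in old and 35.6 ± 11.4 CPM in young cells (adjusted p = 0.0126), and was not called without old replicate 2 or 3. Wt1, a transcription factor of podocytes, had 2.69 ± 1.62 CPM in old and 13.9 ± 8.44 CPM in young cells (adjusted p = 0.0456). It was 1 of 5 podocyte markers tested and the 1 called, against 0.564% of all genes called lower. The call was lost without old replicate 1, 2 or 3, young replicate 2 or young replicate 4. The part of mural RNA in these values, and in those of the arterial genes, was not tested.

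Genes of the matrix and of mesenchymal cells were mostly lower in value. In the mesenchymal list 2 of 12 tested were called lower, against 0.564% of all genes, with a median of -0.84. Vim, vimentin, had 133, 128 and 133 CPM in old and 171, 249, 270 and 251 CPM in young cells (log2 fold change -0.84 ± 0.18; adjusted p = 0.0178). Col5a2, a fibrillar collagen chain, was at 8.65 ± 2.95 CPM in old and 23.5 ± 6.68 CPM in young cells (adjusted p = 0.0467). No member passed without old replicate 1, 2 or 3. Of 18 basement membrane genes none was called in either direction, and 3 of the 18 had a positive log2 fold change. Sparc was at 1288 ± 27.8 CPM in old and 1633 ± 165 CPM in young cells (adjusted p = 0.326), Col4a1 at 534 ± 61.5 CPM in old and 662 ± 56.3 CPM in young cells (adjusted p = 0.390) and Col4a2 at 292 ± 73.1 CPM in old and 331 ± 95.0 CPM in young cells (adjusted p = 0.791).

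Among the remaining genes with the lowest values, Cthrc1, a secreted collagen repeat protein, had 8.76 ± 6.79 CPM in old and 33.2 ± 5.27 CPM in young cells (adjusted p = 0.0151). Dlk1, a membrane protein related to Notch ligands, was at 16.1 ± 7.36 CPM in old and 49.9 ± 18.6 CPM in young cells (adjusted p = 0.0243). Cttnbp2, a cortactin-binding protein, was at 18.1 ± 5.30 CPM in old and 59.8 ± 15.5 CPM in young cells (adjusted p = 0.00293) and was called without each library. Rasd1, a small GTPase induced by steroid hormones, and Cerkl, a ceramide kinase relative, had log2 fold changes of -1.69 ± 0.41 and -1.43 ± 0.34 (adjusted p = 0.0456 and 0.0410). Neither passed without old replicate 1, 2 or 3, young replicate 2 or young replicate 4. Cthrc1 was not called without old replicate 2 or young replicate 4, and Dlk1 without old replicate 2, old replicate 3, young replicate 2 or young replicate 4. Exons of Cttnbp2 and Cerkl overlap expressed genes on the opposite strand.

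Haemoglobin genes, markers of red blood cells, were higher. All 4 tested of the erythroid markers were called higher, against 1.01% of all genes, and their summed level was 1004 to 2538 CPM in old and 288 to 850 CPM in young libraries. Hbb-bs had 1499, 579 and 803 CPM in old and 169, 190, 373 and 515 CPM in young cells (log2 fold change 1.61 ± 0.33; adjusted p = 0.0154). Hba-a1 had 414, 170 and 210 CPM in old and 49.1, 42.5, 100.5 and 117 CPM in young cells (log2 fold change 1.72 ± 0.31; adjusted p = 0.00708). The pairs Hba-a1 and Hba-a2, and Hbb-bs and Hbb-bt, are near-identical copies and their reads may be shared. Without old replicate 1 none of the 4 was called, and without young replicate 2 there were 2. Slc12a3, the sodium chloride cotransporter of the distal tubule, was at 261 ± 25.9 CPM in old and 142 ± 33.7 CPM in young cells (adjusted p = 0.0162). It was 1 of 9 distal tubule and collecting duct markers tested and the 1 called, while the list's median was -0.14. It was not called without old replicate 1, 2 or 3 or young replicate 4.

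Lists of basic cell programmes held few calls, as did all genes tested, of which 1.58% were called in either direction. Oxidative phosphorylation had 0 of 45 tested genes called in either direction, proliferation 0 of 20, the unfolded protein response 0 of 19, hypoxia and glycolysis 0 of 19, antioxidant genes 0 of 17, heat shock 0 of 12, the circadian clock 0 of 12, DNA methylation 0 of 9 and TGF-beta and BMP signalling 0 of 21. Among 16 genes of senescence and p53 there was 1 call. Igfbp7, a secreted binding protein, was at 27.3 ± 8.94 CPM in old and 62.0 ± 11.2 CPM in young cells (adjusted p = 0.0189), and was not called without old replicate 1 or 3. Its exons overlap Polr2b on the opposite strand. Cdkn1a, which encodes p21, was at 424 ± 22.6 CPM in old and 416 ± 113 CPM in young cells (log2 fold change 0.03 ± 0.19; adjusted p = 0.973). Cdkn1b, which encodes p27, was at 531 ± 14.9 CPM in old and 388 ± 126 CPM in young cells (adjusted p = 0.314). Sod1, the cytosolic superoxide dismutase, was at 1224 ± 175 CPM in old and 760 ± 167 CPM in young cells, with no overlap and an adjusted p of 0.0621. Of 13 immediate early genes Junb alone was called, at 130 ± 5.75 CPM in old and 84.3 ± 5.38 CPM in young cells (adjusted p = 0.0486). It overlaps exons of Prdx2 on the opposite strand, and kept its call without young replicate 1 but not without any other library.

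The next comparison asked whether a change with age in kidney endothelial cells differed from that in another sorted cell type, by the difference of both log2 fold changes. Against kidney tubular cells 129 of 14882 genes, 0.867%, differed. Of these 71, 0.477% of those tested, had the higher change in endothelial cells and 58, 0.39%, the lower. Cd74, H2-Ab1, H2-Aa and H2-Eb1 rose in both cell types of the kidney. Cd74 had an age change of 2.99 in endothelial and 2.69 in tubular cells, H2-Ab1 of 2.09 and 2.82, and H2-Aa of 2.20 and 3.15, and none of these differences passed (adjusted p = 0.855, 0.566 and 0.480). H2-DMb1 did differ, with age changes of 2.71 in endothelial and 0.54 in tubular cells (difference 2.14 ± 0.42; adjusted p = 0.0132). Aqp1 fell in both, by 1.37 in endothelial and 1.65 in tubular cells on the log2 scale. Macrophage markers summed to 205 to 355 CPM in old and 175 to 207 CPM in young tubular libraries. Of these C1qb, a complement chain of macrophages, had an age change of 2.76 in tubular cells (adjusted p = 0.00190), Lyz2 of 0.80 (adjusted p = 0.0112) and Csf1r of -1.18 (adjusted p = 0.00185). Their part in the class II values of tubular cells was not tested. Jag1, Vcam1 and Car8 differed between both. Jag1 changed by -0.90 in endothelial and 0.92 in tubular cells (difference -1.86 ± 0.28; adjusted p = 0.00232), Vcam1 by 0.83 and -0.52 (difference 1.31 ± 0.25; adjusted p = 0.00981), and Car8 by 2.14 and 0.18 (difference 1.94 ± 0.46; adjusted p = 0.0459). The tubular changes of Vcam1 and Car8 were not called (adjusted p = 0.11 and 0.85). The difference of Car8 was lost without old replicate 2, old replicate 3, young replicate 2 or young replicate 4.

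Against brain endothelial cells 103 of 14352 genes, 0.718%, differed, 74 (0.516%) with the higher and 29 (0.202%) with the lower change in kidney endothelial cells. Cd74 was at 50.4 ± 11.3 CPM in old and 40.9 ± 6.23 CPM in young brain endothelial cells, an age change of 0.27, and the difference from the kidney was 2.68 ± 0.34 (adjusted p = 0.00117). H2-Aa, H2-Ab1 and H2-Eb1 had age changes of 0.68, 0.68 and 0.55 in brain endothelium, and their differences from the kidney did not pass (adjusted p = 0.157, 0.113 and 0.173). H2-K1 had the same size of change in both organs, 0.84 in kidney and 0.84 in brain endothelium, each called (difference -0.02 ± 0.18; adjusted p = 0.990). Lrg1 also rose in both, by 2.66 in kidney and 1.885 in brain endothelium, where its adjusted p was 0.0487. Its difference was 0.756 ± 0.481 and did not pass (adjusted p = 0.611). Cd36 differed, with 1.62 in kidney and -0.58 in brain endothelium (difference 2.20 ± 0.45; adjusted p = 0.0258). It was low in brain endothelium, at 7.17 ± 2.65 CPM in old and 10.4 ± 4.66 CPM in young cells, and its change there was not called. In tubular and lymph node endothelial cells its age change was 1.06 and 1.14, neither called. Neither differed from the change in kidney endothelium (adjusted p = 0.67 and 0.88). Abcg1 differed too, with 1.04 in kidney and -1.20 in brain endothelium (difference 2.21 ± 0.18; adjusted p = 1.46e-06). Cxcl12, abundant in brain endothelium at 2925 ± 382 CPM in old and 2430 ± 202 CPM in young cells, changed by 0.25 there, and the difference was -2.25 ± 0.31 (adjusted p = 0.00145). Cxcl16 changed by 1.38 in kidney and -1.06 in brain endothelium (difference 2.44 ± 0.44; adjusted p = 0.0138). Its change in brain endothelium was not called (adjusted p = 0.410), at 8.56 ± 4.38 CPM in old and 17.1 ± 7.71 CPM in young cells. The Cd36 difference was lost without old replicate 2 or young replicate 4, with an adjusted p of up to 0.101, and that of Cxcl16 without old replicate 2, with one of 0.0692.

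Against lymph node endothelial cells 18 of 13167 genes, 0.137%, differed, 5 (0.038%) with the higher and 13 (0.0987%) with the lower change in kidney endothelial cells. Slc14a1, at 62.5 ± 27.8 CPM in old and 45.1 ± 8.25 CPM in young lymph node endothelium, changed by 0.47 there and by -2.37 in the kidney (difference -2.83 ± 0.38; adjusted p = 0.00243). Lrg1 was far more abundant in lymph node endothelium, at 1820 ± 631 CPM in old and 2365 ± 443 CPM in young cells. It changed by -0.37 there and by 2.66 in the kidney (difference 3.05 ± 0.42; adjusted p = 0.00243). Cxcl12 differed as well (difference -2.38 ± 0.36; adjusted p = 0.00508), except without old replicate 3, where the adjusted p was 0.0566. Class II genes had positive age changes in lymph node endothelium too, none called. They were 0.75 for Cd74, 1.63 for H2-DMb1, 1.41 for H2-DMa, 1.02 for H2-Aa, 0.94 for H2-Eb1 and 0.54 for H2-Ab1 (adjusted p from 0.378 to 0.760). The difference of Cd74 was 2.25 ± 0.48 with an adjusted p of 0.0698, and those of the other 5 had adjusted p from 0.241 to 0.907. Ncam1 had differences of 2.17 against tubular, 2.48 against brain endothelial and 2.52 against lymph node endothelial cells (adjusted p = 0.0186, 0.0491 and 0.0268). These comparisons share the kidney endothelial libraries. The brain difference of Ncam1 was lost without any single library other than young replicate 1, and the lymph node one without old replicate 1, 2 or 3 or young replicate 2. Ide, insulin-degrading enzyme, chosen after its values were seen, was at 93.9 ± 11.3 CPM in old and 49.2 ± 7.67 CPM in young kidney endothelial cells (adjusted p = 0.0116), with no overlap. Its call was lost without old replicate 3, with an adjusted p of 0.0880. Its age change was 0.95 in kidney endothelial, 0.55 in tubular, 0.55 in brain endothelial and 0.67 in lymph node endothelial cells, with no difference called.

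**Figure D5:**
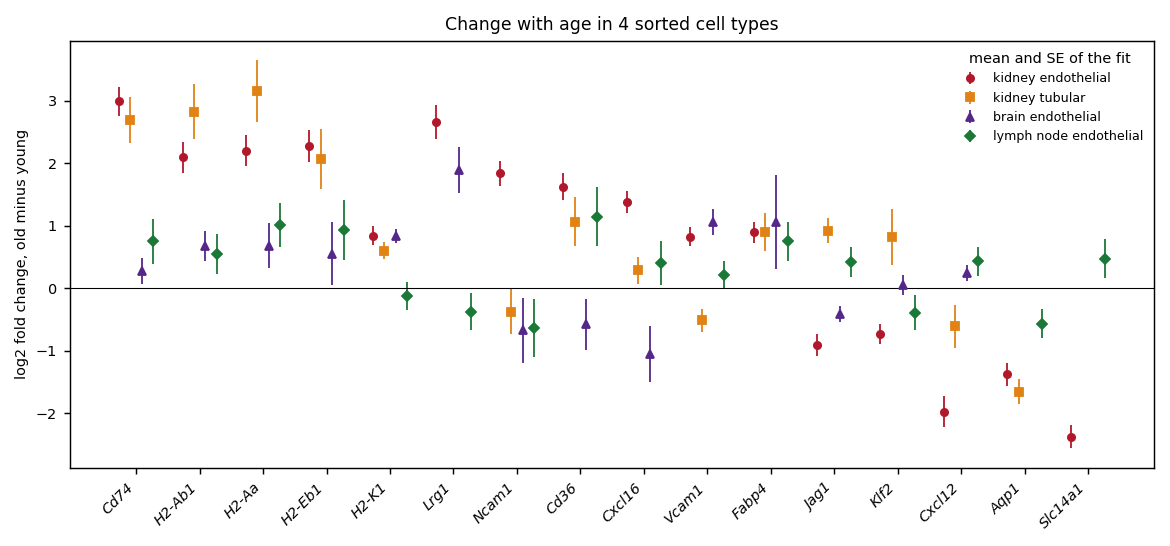
Log2 fold change, old minus young, with its SE, of 16 genes in 4 sorted cell types, each fitted within its cell type. A point is missing where the gene was not tested in that cell type. Cd74 is at 2.99 in kidney endothelial, 2.69 in kidney tubular, 0.27 in brain endothelial and 0.75 in lymph node endothelial cells, and Slc14a1 is at -2.37 in kidney and 0.47 in lymph node endothelium.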

How the data were processed

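RNA was sequenced from sorted cells of old and young mice, and the values used were the raw counts per gene deposited by the authors, whole numbers with no normalization, for 55484 genes in 170 libraries. Per the labels' protocols, 3′ transcript ends were captured, and each read carried a molecular identifier (10 bp) beside its index (8 bp). The sources used here do not say whether identifiers served to remove copies or whether strand entered the counting. Tools named in the submitters' processing notes are STAR, sabre (80faf94) and featureCounts (2.0.1), with builds mm10 and GRCm38.p6. Coordinates were taken from GENCODE M21 on GRCm38 by gene name, and promoter sequences from RefSeq on GRCm38.p6.

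Groups were cell type and age as the titles give them. Replicate pairs had 0 identical libraries and a Spearman correlation of 0.921 to 0.959. Old and young kidney endothelial libraries were tested with edgeR 4.0.16 in R 4.3.3 (glmQLFit and glmQLFTest, TMM scaling, and filterByExpr keeping genes by a minimum count of 10 and total of 15). Every adjusted p is Benjamini-Hochberg over all genes tested, with a threshold of 0.05. Differences between cell types were interaction terms of the same kind of fit. CPM are counts per 1000000 tested counts, scaled by TMM, except the sums for tubular libraries, which are per 1000000 of all counts. Single-gene CPM of other cell types come from the joint fit with kidney endothelial cells, which has its own filter and scaling. So do the kidney endothelial CPM of Clec1a, Aplnr, Hbegf, Rgs4 and Arc. Old kidney endothelial Gpihbp1 was at 534 CPM in the first fit, 491 with brain and 474 with lymph node endothelium. Alternatives were RLE scaling, no filter, a minimum count of 30, a block for the replicate number, DESeq2 1.42.0, a spread shared over 4 cell types, and leaving out each kidney endothelial library. The fits were tested on simulated data with known changes.

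Named genes were those called whose groups did not overlap and whose higher group mean reached 20 CPM, taking the 14 highest and 14 lowest log2 fold changes. Xist, Tsix, chromosome Y genes, unnamed models, pseudogenes, antisense genes and receptor segments were left out. Other genes of chromosome X were kept, among them Dcaf12l1, Rai2, Bmx and Bgn. Each list added up to 6 called members by adjusted p or, where fewer than 2 were called, members from the 3 most abundant. Of each interaction the 6 highest and 6 lowest called genes with at least 20 CPM in 1 group were taken. The members and the 28 gene lists and 17 marker lists were chosen with earlier results of these data known. List values are counts and medians, with no set test.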

Additional observations from a re-analysis of the deposited data

Results flagged for a closer look

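In 7 genes and 1 marker list a young library stood far from the other young libraries, by Dixon's criterion at 95%. Chance gives about 1 such flag in 20 groups, and 122 groups were examined. Young replicate 3 was the highest for Car8 (51.7 CPM), Myl9 (327 CPM), Plvap (1039 CPM) and the summed platelet markers (75.5 CPM). Young replicate 1 was the highest for Agtr1a (70.8 CPM), Pdpn (23.6 CPM) and Wt1 (26.4 CPM), and the lowest for Jag1 (286 CPM).

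Changes with age that differed between cell types, by the interaction test, are given as the log2 change in kidney endothelial cells minus that in the other cell type. Against kidney tubular cells the values were 2.97 for Slc4a11, 2.81 for Cldn15, 2.66 for Enpp6, 2.53 for Stk32a, 2.39 for Bst1 and 2.33 for Papss2. On the lower side they were -3.41 for Itga8, -3.34 for Cyth4, -3.24 for Cd53, -3.21 for Clec1a, -2.98 for Pdgfrb and -2.82 for Mndal. Further differences against tubular cells, chosen after their values were seen, were 2.14 for H2-DMb1, -1.86 for Jag1, 1.31 for Vcam1, 1.94 for Car8 and 2.17 for Ncam1. Slc4a11 lost its call without old replicate 2, Cd53 without old replicate 1 or 3, Car8 without old replicate 2 or 3 or young replicate 2 or 4, Stk32a without those or young replicate 3, and Cyth4 without any library but young replicate 1. Clec1a, a lectin receptor of endothelium, was at 303 ± 40.6 CPM in old and 291 ± 6.83 CPM in young kidney endothelial cells, and at 17.8 ± 5.94 CPM in old and 1.79 ± 0.32 CPM in young tubular cells.

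Against brain endothelial cells the values were 3.34 for Aplnr, 3.24 for Gpihbp1, 3.20 for Car8, 2.72 for Gadd45a, 2.68 for Cd74 and 2.48 for Ncam1, and on the lower side -4.03 for Cyp2e1, -3.34 for Coro2a, -2.48 for Shtn1, -2.35 for Prkar2b, -2.33 for Prune2 and -2.25 for Cxcl12. Chosen after their values were seen were 2.20 for Cd36, 2.21 for Abcg1 and 2.44 for Cxcl16. Calls were lost for Gadd45a, Coro2a and Cxcl16 without old replicate 2, for Cd36 without old replicate 2 or young replicate 4, and for Cyp2e1 without old replicate 2 or 3 or young replicate 2 or 3. Gpihbp1 and Car8 lost theirs without any old library or young replicate 2 or 4, Prkar2b without old replicate 1 or 2 or young replicate 2 or 4, and Ncam1 and Shtn1 without any library but young replicate 1. Aplnr, the apelin receptor, was at 47.6 ± 1.79 CPM in old and 24.3 ± 9.12 CPM in young kidney endothelial cells, and at 2.30 ± 2.12 CPM in old and 12.5 ± 1.40 CPM in young brain endothelial cells. Gpihbp1 and Car8 were low in brain endothelium, at 0.56 and 2.43 CPM in old and 2.78 and 4.67 CPM in young cells.

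Against lymph node endothelial cells the values were 3.05 for Lrg1, 2.52 for Ncam1, 2.17 for Bst1 and 1.45 for Clu, and -5.09 for Rgs4, -4.53 for Arc, -2.84 for Hbegf, -2.83 for Slc14a1, -2.76 for Nr4a1 and -2.59 for Pdgfrb. Chosen after its values were seen was -2.38 for Cxcl12. Lrg1, Hbegf and Slc14a1 were called without each library. Cxcl12 was not called without old replicate 3, Pdgfrb without any old library, Ncam1 without any old library or young replicate 2, Nr4a1 without those or young replicate 4, and Rgs4 without any old library or young replicate 2 or 3. Clu was called only without young replicate 1, Arc only without young replicate 3, and Bst1 in none of the 7 cases. Rgs4 and Arc had under 8 CPM in the kidney endothelial groups. Hbegf, a growth factor of the EGF family, was at 103 ± 8.00 CPM in old and 180 ± 42.7 CPM in young kidney endothelial cells, and at 274 ± 149 CPM in old and 67.4 ± 15.9 CPM in young lymph node endothelial cells.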

How the results depend on the processing

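With RLE scaling 74 of the 74 named called genes kept their call, with DESeq2 69, with no filter 71, with a minimum count of 30 63, with the replicate block 64 and with a spread shared over 4 cell types 30. Of the 74, 18 kept call and direction under every alternative run: Aqp1, Bgn, Cd36, Cd74, Cttnbp2, Cxcl12, Cxcl16, Flt4, Gbp8, H2-Aa, H2-Ab1, H2-DMb1, H2-Eb1, Itga8, Lrg1, Scin, Slc14a1 and Sost. Abcg1, Car8, Ctss, Dcaf12l1, Lyz2, Ncam1, Pdgfrb, Ptgs1 and Serpine2 were called without each library but not with the shared spread. Kidney endothelial genes called higher and lower numbered 192 and 171 with no filter and 39 and 35 with the shared spread, and 38 to 239 and 17 to 139 with 1 library left out. Against tubular cells they numbered 131 and 335 with no filter and 159 and 134 with DESeq2, and 38 to 100 and 27 to 133 with 1 library left out. Against brain endothelium they were 206 and 103 with no filter and 221 and 75 with DESeq2, and 8 to 162 and 6 to 57 with 1 library left out. Against lymph node endothelium they were 38 and 161 with no filter and 28 and 63 with DESeq2, and 2 to 5 and 3 to 15 with 1 library left out. The lowest counts were reached without old replicate 2 in all but the lower genes against lymph node endothelium and the higher genes against tubular cells, both without old replicate 3. Leaving out young replicate 1 gave the highest counts in the first comparison and against brain endothelium. With no filter more genes were tested, and the cause of the other shifts was not tested. Same-numbered old and young libraries deviated together with r = 0.112, -0.0673 and 0.0275 for numbers 1 to 3, so the numbers were not taken as pairs. With the replicate block the genes called higher and lower were 81 and 57 in the first comparison, 23 and 29 against tubular cells, 100 and 53 against brain endothelium and 9 and 28 against lymph node endothelium. Directions turned only where the value was not called. With no filter Cdkn1a was at -0.0033 and Pecam1 at -0.0052, and with 1 library left out the log2 fold change of Cdkn1a ran from -0.0837 to 0.214, of Pecam1 from -0.0753 to 0.111, of Csf1r from -0.0456 to 0.472, of C1qb from -6.35e-05 to 0.482, of Tbx3 from -0.0086 to 0.315 and of Col4a2 from -0.376 to 0.037. The difference of H2-K1 from brain endothelium was 0.0073 with RLE scaling, 0.0133 with no filter, 0.0087 with DESeq2 and 0.0307 with the replicate block, and ran from -0.11 to 0.0442 with 1 library left out. Old replicate 1, at 929204 counts, was the shallowest library, and how depth bears on genes near the minimum count of 10 was not tested.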
